A study of Mus musculus with 24 samples.

Results

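The values described here belong to 10 genes by which fibroblasts of the leptomeninges, the thin membranes that cover the brain, are recognised in mouse brain RNA. They are Ptgds, Igfbp2, Col1a1, Col1a2, Dcn, Lum, Aldh1a2, Crabp2, Slc6a13 and Slc47a1. They were chosen by name, out of 55471 genes counted in the hypothalamus, because meningeal genes had been seen lower in overfed mice on day 14. The difference between the diets on day 14 therefore made the choice, and it is given below as a description with no test. All 10 passed the filter on low counts, which left 18992 genes for testing.

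The samples were hypothalami of chow-fed male C57BL6/J mice, 18 weeks old, each fitted with a gastric catheter. Experimental overfeeding (ExpOF) mice were infused with Nutridrink enriched with sucrose, at a rate raised stepwise to 150% of energy on day 9, and Controls received sterile water through the pump in matching volumes. Mice were killed after 14 days of infusion (d14) or 3 days later (d14+3). In those 3 days ExpOF mice received water too, as Controls had throughout. The study asked how the hypothalamus responds to overfeeding and to the days that follow it.

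There were 4 groups of 6 mice, Control d14, ExpOF d14, Control d14+3 and ExpOF d14+3, with 1 poly-A RNA library per mouse, so p-values measure the spread between mice. Within every group, 3 mice were killed in July and 3 in September, and RNA was extracted in 2 rounds, replicates 1 to 3 in round 1 and replicates 4 to 6 in round 2. Replicate 4 of Control d14, which the study left out for poor RNA quality although its label gives an RNA integrity number (RIN) of 9.8, was left out here too, so Control d14 had 5 mice and the fit had 23 libraries. Those libraries held between 8928182 and 34848437 counts. RIN ran from 8.6 to 9.9 in round 1 and from 7.2 to 10 in round 2. It was not balanced between the diets, since every RIN under 8.6 was from a Control mouse. In the fit it ran from 8 to 10 in Control d14 and from 9.6 to 10 in ExpOF d14. On d14+3 it ran from 7.2 to 9.9 in Control and from 8.8 to 10 in ExpOF. How the hypothalamus was cut from the brain, and how much meningeal membrane came with it, is not given in the sources used here. In whole tissue, fewer cells of a type and less RNA per cell cannot be told apart.

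Leptomeningeal fibroblasts lay down the collagen-rich matrix of the arachnoid and pia, and fibroblasts of the same lineage sheathe the larger vessels that enter the brain. They make prostaglandin D2, retinoic acid and insulin-like growth factor binding proteins that are released into the cerebrospinal fluid, and they carry solute transporters of the arachnoid barrier. Several of the 10 genes are also used by other cells: Ptgds by oligodendrocytes and choroid plexus, and Igfbp2 by choroid plexus, astrocytes and tanycytes.

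The start-site sequences below are shown for the 2 most abundant members, for a matrix gene and for a transporter gene, so that the groups described next can be compared by sequence. They are from RefSeq on GRCm38.p6, the same assembly as mm10, each with 250 bases before and 50 bases after an annotated start, written 5′ to 3′ on the gene's strand. The RefSeq table held 5 of the 10 members. Capitals mark GC boxes (GGGCGG or its complement CCGCCC) and CCAAT boxes (CCAAT or ATTGG).
Ptgds, chr2:25469700-25469999, minus strand: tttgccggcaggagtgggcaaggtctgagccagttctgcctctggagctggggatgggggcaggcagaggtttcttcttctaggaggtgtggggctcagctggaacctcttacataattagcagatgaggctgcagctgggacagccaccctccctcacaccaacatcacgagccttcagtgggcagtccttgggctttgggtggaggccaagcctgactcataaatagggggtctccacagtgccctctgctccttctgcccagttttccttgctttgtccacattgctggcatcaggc
Igfbp2, chr1:72824230-72824529, plus strand: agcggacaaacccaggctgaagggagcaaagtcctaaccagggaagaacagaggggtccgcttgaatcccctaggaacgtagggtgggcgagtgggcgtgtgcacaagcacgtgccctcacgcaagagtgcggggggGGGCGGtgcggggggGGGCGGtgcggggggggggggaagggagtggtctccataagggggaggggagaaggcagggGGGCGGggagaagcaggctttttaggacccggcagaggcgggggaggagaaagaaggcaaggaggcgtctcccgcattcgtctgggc
Col1a2, chr6:4505368-4505667, plus strand: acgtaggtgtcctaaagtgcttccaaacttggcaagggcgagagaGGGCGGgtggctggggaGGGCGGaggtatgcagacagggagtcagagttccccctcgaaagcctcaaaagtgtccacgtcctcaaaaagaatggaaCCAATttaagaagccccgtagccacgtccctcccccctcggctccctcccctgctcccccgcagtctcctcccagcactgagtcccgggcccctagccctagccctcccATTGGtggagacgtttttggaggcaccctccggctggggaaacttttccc
Slc6a13, chr6:121300038-121300337, plus strand: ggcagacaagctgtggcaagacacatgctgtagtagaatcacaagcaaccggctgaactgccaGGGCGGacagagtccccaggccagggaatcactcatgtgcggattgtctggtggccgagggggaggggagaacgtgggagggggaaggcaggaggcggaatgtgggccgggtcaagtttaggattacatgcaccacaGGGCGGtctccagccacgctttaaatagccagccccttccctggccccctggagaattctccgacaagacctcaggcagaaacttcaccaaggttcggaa

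The Ptgds window held neither motif. The Igfbp2 window shown held 3 GC boxes and no CCAAT box, and the Col1a2 window held 2 of each. The Slc6a13 window shown held 2 GC boxes. Of 32851 start-site windows of the same length in the table, 35.7% held a GC box and 37.4% a CCAAT box. The TATA box TATAAA was in none of the 4 windows and in 13.6% of all, and the nuclear receptor motif AGGTCA was in none of the 4 and in 16.3% of all, each on either strand. RefSeq also held windows at other starts that are not shown, for Igfbp2 (from 72825137) and Slc6a13 (from 121300490 and 121303389). That of Igfbp2 held none of these motifs. Both of Slc6a13 held a CCAAT box and no GC box, and the latter also held the complement of AGGTCA.

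Per length, Ptgds stood far above the other members. Its level over the 23 libraries was 774 ± 207 TPM (transcripts scaled for gene length and library total; mean ± SD), and it took between 83.7% and 94.2% of the members' summed TPM in every library. Igfbp2 followed at 17.6 ± 12.9 TPM and Dcn at 11.0 ± 5.98 TPM. Slc6a13, Aldh1a2 and Col1a2 lay together at 7.55 ± 2.0, 7.23 ± 2.66 and 7.19 ± 3.76 TPM, within their SDs of each other. Col1a1 (5.88 ± 4.06), Crabp2 (4.11 ± 1.45), Slc47a1 (3.93 ± 1.95) and Lum (3.30 ± 2.39 TPM) were the lowest, and these neighbours did not differ beyond their spread.

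Ptgds encodes lipocalin-type prostaglandin D synthase, which makes prostaglandin D2 and is among the most abundant proteins of cerebrospinal fluid (mm10 chr2:25466709-25470046, minus strand). In CPM (counts scaled to library total), the 5 Control d14 libraries held 574, 459, 287, 517 and 463 (replicates 1, 2, 3, 5 and 6). The 6 ExpOF d14 libraries lay between 221 and 341, with a median of 283. Replicate 3 was the only Control d14 mouse inside the ExpOF d14 range, and the other 4 lay above every mouse of the other 3 groups. On d14+3, Control libraries ran from 249 to 426 (median 318) and ExpOF libraries from 254 to 362 (median 267). The ExpOF minus Control difference was -0.70 ± 0.15 on d14 (log2 fold change ± SE, not tested) and -0.23 ± 0.14 on d14+3, where edgeR's quasi-likelihood test gave an adjusted p of 0.765 and the exact permutation test of 6 against 6 mice a p of 0.126. Between the 2 days the Control mean moved from 460 ± 108 to 332 ± 60.5 CPM (SD), while the ExpOF means were 284 ± 46.4 and 282 ± 39.9 CPM.

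Igfbp2 encodes a secreted protein that binds insulin-like growth factors (chr1:72824503-72852467, plus strand). Control d14 libraries held it at 7.92, 8.14, 4.84, 34.1 and 10.6 CPM (replicates 1, 2, 3, 5 and 6), and ExpOF d14 libraries at 3.62 to 5.37 CPM (median 4.36). Replicate 5 stood far above the other controls, and replicate 3 lay inside the ExpOF range. On d14+3 the Control range was 5.59 to 13.4 CPM (median 7.61) and the ExpOF range 3.57 to 16.1 CPM (median 8.76), so that the ExpOF mice spanned the whole Control range. The log2 difference was -1.57 ± 0.42 on d14 (not tested) and 0.08 ± 0.39 on d14+3, with an adjusted p of 0.965 by edgeR.

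Choroid plexus markers moved with Igfbp2 across libraries. The 8 markers summed to 3069 CPM in Control d14 replicate 5, 1315 CPM in ExpOF d14+3 replicate 4 and 4514 CPM in the library left out, where Igfbp2 was at 34.1, 16.1 and 80.6 CPM. These 3 libraries were all from September mice and extraction round 2. In the other 21 libraries the markers summed to 38.0 to 75.5 CPM and Igfbp2 ran from 3.57 to 13.4 CPM. The part of choroid plexus RNA in the Igfbp2 difference was not tested. Without Control d14 replicate 5 the d14 difference was -0.84, and with the left-out library included it was -2.42.

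**Figure D1:**
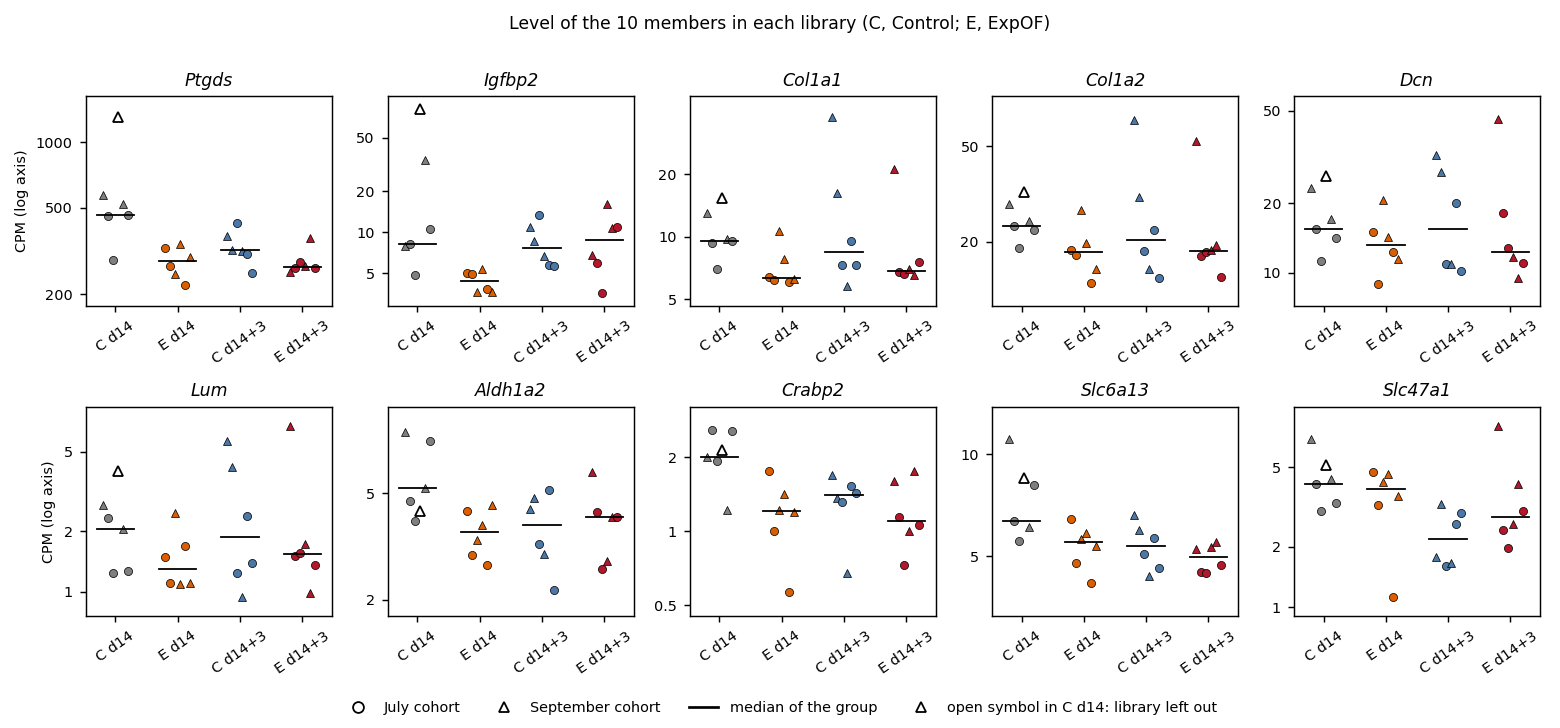
Level of each of the 10 genes in every library (CPM, log axis) for the 4 groups, points being mice and bars group medians of the libraries in the fit. The open symbol is the Control d14 library left out. Ptgds in 4 of the 5 Control d14 mice lies above all mice of the other groups, while the matrix genes spread most on d14+3.

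Col1a1 and Col1a2 encode the chains of type I collagen, the main fibrillar collagen of the meninges. Col1a1 (chr11:94936224-94953042, plus strand) was at 13.0, 9.29, 7.01, 9.75 and 9.57 CPM in Control d14 and at 6.09 to 10.7 CPM in ExpOF d14 (median 6.34). The 2 d14 groups overlapped, with ExpOF d14 replicate 3 above 4 of the 5 controls. On d14+3 Control libraries ran from 5.81 to 37.8 CPM (median 8.43) and ExpOF libraries from 6.55 to 21.3 CPM (median 6.86), and 1 library in each group stood far above its median. Col1a2 (chr6:4504814-4541544, plus strand, overlapped on the same strand by the unclassified gene Gm43921) ran from 13.5 to 28.8 CPM on d14 and from 14.2 to 64.4 CPM on d14+3. The d14+3 difference was -0.59 ± 0.39 for Col1a1 (adjusted p = 0.768, edgeR) and -0.24 ± 0.34 for Col1a2 (adjusted p = 0.851, edgeR). The d14 differences, which were not tested, were -0.41 ± 0.42 and -0.32 ± 0.36.

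Dcn and Lum encode decorin and lumican, small leucine-rich proteoglycans that bind collagen fibrils, and lie 46984 bases apart on chromosome 10 (chr10:97479609-97518143 and chr10:97565128-97572703, both plus strand). Dcn had group means of 16.2 ± 4.42 CPM in Control d14, 13.8 ± 3.94 in ExpOF d14, 18.6 ± 9.53 in Control d14+3 and 18.2 ± 14.0 in ExpOF d14+3. Lum had means of 1.92 ± 0.65, 1.49 ± 0.54, 2.63 ± 1.89 and 2.31 ± 2.17 CPM in the same order. The means of each gene differed by less than the SDs of the d14+3 groups. The d14+3 differences were -0.02 ± 0.37 for Dcn (adjusted p = 0.991, edgeR) and -0.17 ± 0.44 for Lum (adjusted p = 0.920, edgeR), against -0.22 ± 0.39 and -0.34 ± 0.49 on d14 (not tested).

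When the 4 matrix genes were summed, the same few libraries stood out as in the collagen values. Col1a1, Col1a2, Dcn and Lum together held 140 CPM in Control d14+3 replicate 1, 127 CPM in ExpOF d14+3 replicate 1 and 78.4 CPM in Control d14+3 replicate 2, against a median of 41.5 CPM over the 23 libraries and 77.9 CPM in the library left out. These 3 libraries of d14+3 also had the highest levels of 5 markers of border macrophages, cells that live in the same membranes, at 20.9, 20.5 and 13.1 CPM summed, while no other library passed 9.88 CPM. All 3 of these d14+3 libraries were from September mice and extraction round 1. The part of the amount of membrane in these values was not tested. Leaving out Control d14+3 replicate 1 and ExpOF d14+3 replicate 1 together, which was decided on with the values in view, left no member at an unadjusted p under 0.05 on d14+3.

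**Figure D2:**
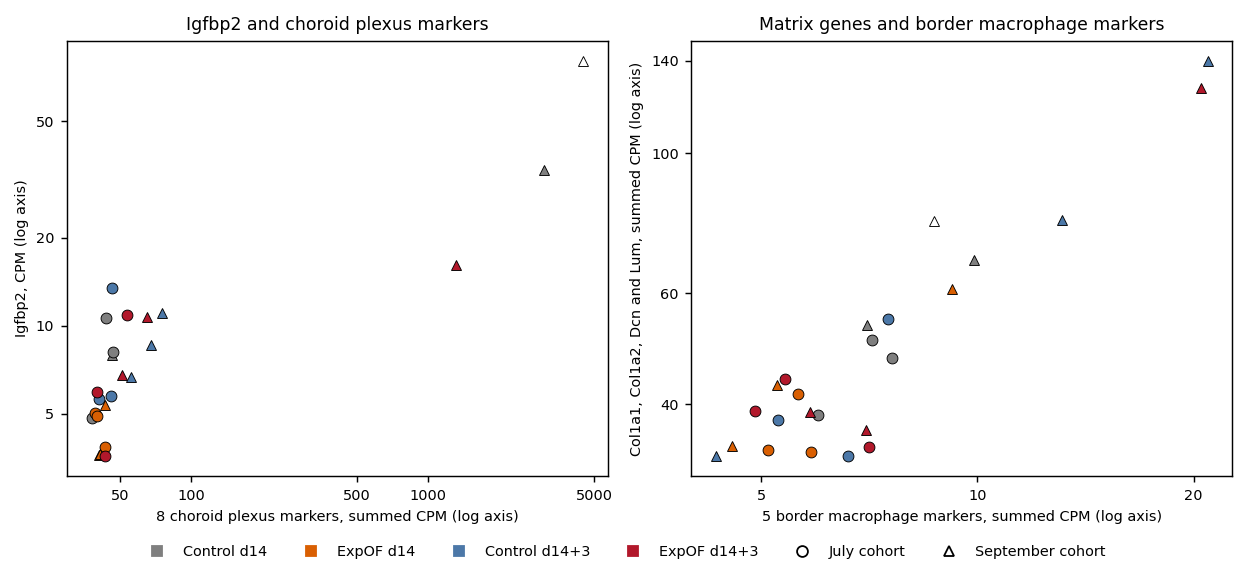
Left, Igfbp2 against the sum of 8 choroid plexus markers; right, the sum of the 4 matrix genes against the sum of 5 border macrophage markers, each point a library, in CPM on log axes. The 3 libraries highest in choroid plexus markers are highest in Igfbp2, and the 3 highest in macrophage markers are highest in matrix genes among the 23; the open symbol is the library left out.

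Aldh1a2 makes retinoic acid from retinal, and Crabp2 carries retinoic acid to its nuclear receptors. Aldh1a2 (chr9:71215789-71296243, plus strand) was at 8.44, 4.69, 3.95, 5.21 and 7.84 CPM in Control d14 (replicates 1, 2, 3, 5 and 6) and at 2.7 to 4.51 CPM in ExpOF d14 (median 3.59). A single Control d14 mouse, replicate 3, fell within the ExpOF d14 range. On d14+3 it ran from 2.17 to 5.14 CPM in Control (median 3.79) and from 2.61 to 5.99 CPM in ExpOF (median 4.07). Crabp2 (chr3:87948666-87953376, plus strand) was at 2.0, 2.58, 1.94, 1.22 and 2.56 CPM in Control d14, and 4 of these 5 values lay above every mouse of the other 3 groups. It ran from 0.563 to 1.76 CPM in ExpOF d14, from 0.675 to 1.69 CPM in Control d14+3 and from 0.732 to 1.76 CPM in ExpOF d14+3. The lowest of these rested on 5 counts (exact 95% Poisson interval 1.62 to 11.7, counting error only), in the smallest library. The d14+3 differences were 0.06 ± 0.23 for Aldh1a2 (adjusted p = 0.945, edgeR) and -0.14 ± 0.24 for Crabp2 (adjusted p = 0.873, edgeR), beside -0.72 ± 0.23 and -0.71 ± 0.24 on d14 (not tested).

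Slc6a13 encodes the GABA transporter GAT2, and Slc47a1 the multidrug exporter MATE1, both carriers of barrier-forming membranes. Slc6a13 (chr6:121300227-121337733, plus strand) had means of 7.43 ± 2.24 CPM in Control d14, 5.37 ± 0.80 in ExpOF d14, 5.39 ± 0.85 in Control d14+3 and 4.96 ± 0.45 in ExpOF d14+3. The last 3 differed by less than their spread. Slc47a1 (chr11:61343401-61378345, minus strand) was at 6.90, 4.14, 3.02, 4.37 and 3.30 CPM in Control d14 and at 1.13 to 4.71 CPM in ExpOF d14 (median 3.91). In Control d14+3 it ran from 1.61 to 3.26 CPM (median 2.20) and in ExpOF d14+3 from 1.97 to 8.04 CPM (median 2.81). Its lowest value, 1.13 CPM, rested on 10 counts (exact 95% Poisson interval 4.80 to 18.4).

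By edgeR, Slc47a1 had the smallest unadjusted p of the 10 genes on d14+3, with a log2 difference of 0.68 ± 0.32. The unadjusted p was 0.0435, but over all genes the adjusted p was 0.701 by edgeR, and the exact permutation test gave 0.139. The groups overlapped, and only ExpOF d14+3 replicates 1 and 5 lay above the highest Control mouse. Without replicate 1 the difference was 0.28. By cohort it was 0.05 in the July mice alone and 1.12 in the September mice alone. The difference between the cohorts in the diet effect was 1.08 ± 0.57, with an unadjusted p of 0.0822 (edgeR). Slc6a13 differed by -0.12 ± 0.14 (adjusted p = 0.819, edgeR).

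On d14+3, then, no member passed the test. None of the 18992 genes (0%) had an adjusted p under 0.05 by edgeR and 1350 had an unadjusted p under 0.05, while DESeq2 called 55 genes and none of the 10. At an unadjusted p under 0.05, 1 of the 10 was called, Slc47a1, against 7.11% of all genes, or 2.91% when only higher genes are counted. 7 members had a fold change below 0 and 3 above, against 47.9% of all genes below 0. Their median was -0.13, against 0.01 for all genes. Both values shifted without Control d14+3 replicate 1, which left 3 members below 0 and 7 above, with a median of 0.14. Col1a1, Col1a2, Dcn and Lum were then at 0.015, 0.21, 0.21 and 0.20. Without ExpOF d14+3 replicate 1 instead, these genes were at -1.03, -0.66, -0.56 and -0.87. Without both libraries, Dcn was at -0.33 and Lum at -0.50. Every member's ExpOF d14+3 range overlapped the Control d14+3 range. Among all genes, 0.300% had every ExpOF mouse below every Control mouse and 0.121% every ExpOF mouse above. By diet and cohort, none of the 10 had an unadjusted p under 0.05 for the interaction, beside 2.43% of the 17930 genes in that fit, none of which had an adjusted p under 0.05 by edgeR or DESeq2 (435 had an unadjusted p under 0.05).

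For the d14 comparison, which made the choice, all 10 had a log2 fold change below 0, with a median of -0.42, where 53.4% of all genes were below 0 and the median of all was -0.02. The members ran from -0.21 (Slc47a1) to -1.57 (Igfbp2). None had every ExpOF d14 mouse below every Control d14 mouse, which 0.958% of all genes had. Without Control d14 replicate 1, Slc47a1 moved to 0.01 and 9 of the 10 were lower. There was no threshold in the choice, so no value just inside or outside it can be given.

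**Figure D3:**
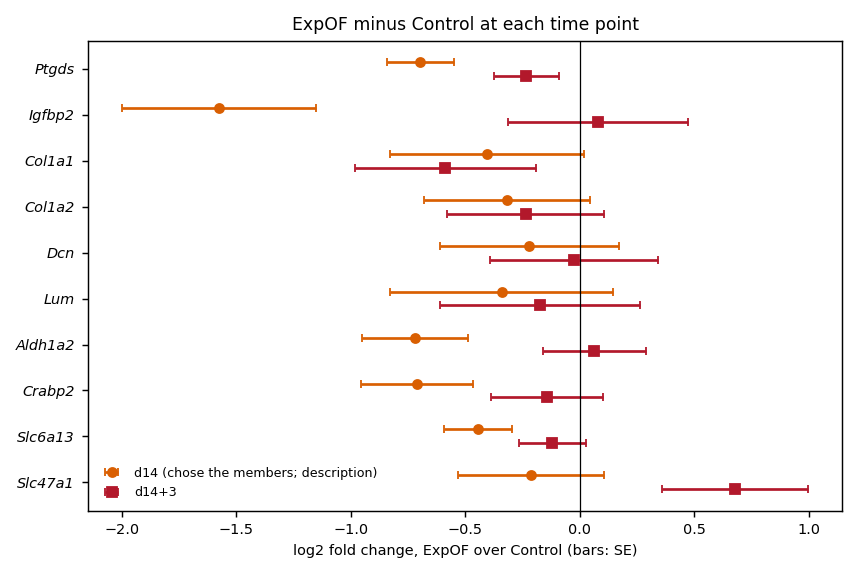
ExpOF minus Control log2 fold change of the 10 genes on d14 and on d14+3, with bars of 1 SE on either side. All d14 values lie below 0 by the choice of the genes, and the d14+3 values lie on both sides of 0, from -0.59 (Col1a1) to 0.68 (Slc47a1).

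Group means were set in order for each gene. Control d14 had the highest mean of the 4 groups for 6 genes, Ptgds, Igfbp2, Aldh1a2, Crabp2, Slc6a13 and Slc47a1. ExpOF d14 had the lowest mean for 7. The d14 difference that made the choice favours both of these orders, and their share among all genes was not computed. For these 6 genes Control d14+3 had a lower mean than Control d14, with log2 differences of -0.45 for Ptgds, -0.35 for Igfbp2, -0.66 for Aldh1a2, -0.60 for Crabp2, -0.43 for Slc6a13 and -0.88 for Slc47a1 (not tested, since the Control d14 mice were used in the choice). The ExpOF mice of d14+3 and d14 differed by 0.11 or less in size for the same genes except Igfbp2, at 0.88. The 4 matrix genes had their highest mean in Control d14+3, with log2 differences between the control groups of 0.02 to 0.21, and this rested on 1 mouse. Without Control d14+3 replicate 1 those differences were -0.14 for Col1a1, -0.26 for Col1a2, -0.11 for Dcn and -0.059 for Lum. By median, too, Control d14 was above Control d14+3 for Col1a1 (9.57 and 8.43 CPM), Col1a2 (23.4 and 20.4 CPM) and Lum (2.07 and 1.88 CPM), with Dcn at 15.5 CPM in both. The d14 and d14+3 comparisons rest on different mice and share no controls.

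The cohorts took no part in the choice, and both diets and both days were present in each. No member passed the adjusted test between cohorts, and the matrix genes had the largest differences of the 10. Over all 23 libraries, with group and round in the fit, the log2 difference was 0.72 ± 0.21 for Col1a1, 0.66 ± 0.16 for Col1a2, 0.58 ± 0.20 for Dcn and 0.76 ± 0.24 for Lum. Slc47a1 was at 0.51 ± 0.20 and Slc6a13 at 0.21 ± 0.098. These 6 of the 10 had an unadjusted p under 0.05, from 0.000522 for Col1a2 to 0.0438 for Slc6a13, against 4.28% of all genes, or 2.52% counting only genes higher in September. No gene of 18992 (0%) passed the adjustment by edgeR, none by DESeq2, and 812 had an unadjusted p under 0.05. The adjusted p of each member was 1. With every gene of at least 1 count kept, in a fit whose prior degrees of freedom became infinite, 6 members passed the adjustment by cohort, and 5 did so by round. Ptgds (0.17 ± 0.10), Igfbp2 (0.44 ± 0.26), Aldh1a2 (0.23 ± 0.16) and Crabp2 (-0.02 ± 0.18) did not reach an unadjusted p of 0.05. Without the 2 libraries of highest matrix RNA, which are both September mice, the differences were 0.36 for Col1a1, 0.36 for Col1a2, 0.33 for Dcn, 0.43 for Lum and 0.43 for Slc47a1, and 3 members had an unadjusted p under 0.05.

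The extraction rounds gave a similar picture, with no member past the adjusted test and the 4 matrix genes the lowest relative to round 1. In round 2 against round 1 the difference was -0.60 ± 0.21 for Col1a1, -0.60 ± 0.16 for Col1a2, -0.60 ± 0.20 for Dcn and -0.85 ± 0.25 for Lum, with unadjusted p of 0.00822, 0.00116, 0.00625 and 0.00216. The adjusted p ran from 0.385 to 0.877 by edgeR. These 4 of 10 stand against 4.08% of all genes, or 2.73% counting only genes lower in round 2. No gene (0%) passed the adjustment by edgeR, 774 had an unadjusted p under 0.05, and DESeq2 called 29. The other members lay between -0.26 (Slc47a1) and 0.40 (Igfbp2), each with an unadjusted p over 0.05. With RIN in the fit the 4 differences were -0.51, -0.57, -0.64 and -0.89, and without the 2 libraries of highest matrix RNA, both from round 1, they were -0.26, -0.31, -0.38 and -0.52. Border macrophage markers moved the same way, with 3 of 5 lower in round 2 and 4 of 5 higher in September at an unadjusted p under 0.05.

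**Figure D4:**
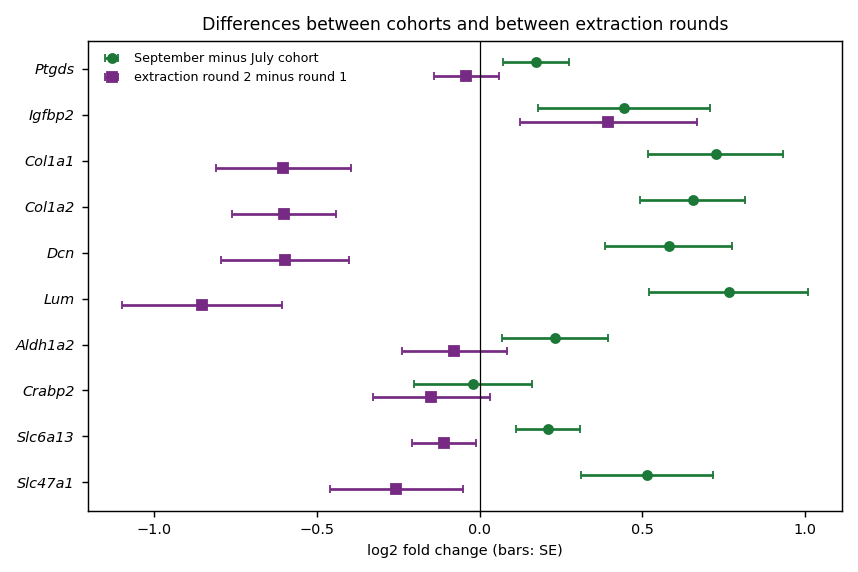
Log2 differences of the 10 genes between September and July mice and between extraction rounds 2 and 1, with bars of 1 SE on either side. The 4 matrix genes lie above 0 by cohort (0.58 to 0.76) and below 0 by round (-0.60 to -0.85).

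Across the 12 mice of d14+3, which took no part in the choice, the levels of the matrix genes were correlated from mouse to mouse. After the group mean was removed, Col1a1 and Col1a2 had Pearson's r = 0.964 and Spearman's rho = 0.776 (permutation test, adjusted p = 0.0018 for r over 45 pairs), and r = 0.811 without the 2 mice farthest from the median. Dcn and Lum had r = 0.957 and rho = 0.909 (adjusted p = 0.00045, permutation test), and r = 0.882 without those 2. The 6 pairs among the 4 matrix genes ran from 0.879 to 0.964. The transporter Slc6a13 followed Col1a2 (r = 0.756, adjusted p = 0.0136, permutation test) and Col1a1 (r = 0.748, adjusted p = 0.0136, permutation test), and Aldh1a2 followed Dcn (r = 0.761, adjusted p = 0.0190, permutation test). The last pair past the adjustment was Crabp2 and Slc6a13 (r = 0.704, adjusted p = 0.0432, permutation test), at 0.485 without the 2 farthest mice. 10 of the 45 pairs passed by r and 9 by rho, and the median r was 0.526. All points share library depth and normalization.

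Ptgds, Igfbp2 and Slc47a1 had no pair past the adjustment. Between Ptgds and Igfbp2 r was 0.509 over the 12 mice (adjusted p = 0.173, permutation test; rho = 0.483), and 0.304 without the 2 farthest mice. Ptgds had r between -0.298 (Slc47a1) and 0.405 (Slc6a13) with the 8 other members, and Igfbp2 between -0.119 and 0.485. Without the 2 mice farthest from the median of Ptgds, Control d14+3 replicate 3 and ExpOF d14+3 replicate 5, Ptgds moved from 0.058 to 0.485 with Col1a1, from 0.169 to 0.515 with Col1a2, from -0.134 to 0.357 with Dcn and from -0.132 to 0.355 with Lum. With the cohort mean removed 9 pairs passed, and without the 2 libraries of highest matrix RNA 9 passed. The correlations were not tested for a difference between pairs.

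**Figure D5:**
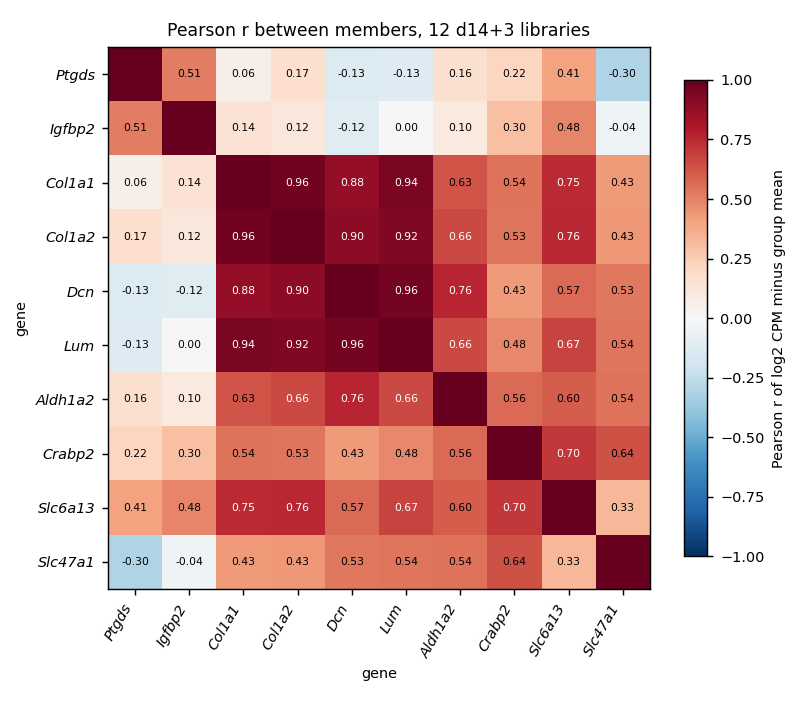
Pearson's r between each pair of the 10 genes over the 12 d14+3 mice, after the group means were removed; the colour scale runs from -1 to 1. Pairs among Col1a1, Col1a2, Dcn and Lum run from 0.879 to 0.964, and Ptgds with Igfbp2 is at 0.509; Ptgds with these 4 runs from -0.134 to 0.169 here and from 0.355 to 0.515 without the 2 farthest mice.

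The ratios within these pairs varied less than the levels. Col1a1 was at 0.792 ± 0.12 of Col1a2 in TPM over the 23 libraries (range 0.640 to 1.11), while Col1a1 itself varied 6.51-fold in CPM and Col1a2 4.76-fold between the lowest and the highest library. Dcn was at 3.66 ± 0.80 times Lum (range 2.40 to 5.45), while Lum varied 7.10-fold. Ptgds and Slc6a13 varied least, at 2.60-fold and 2.65-fold, and Igfbp2 most, at 9.56-fold.

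Among 15810 genes that are not members, those whose pattern over the 23 libraries was most like the members' mean were F13a1 (r = 0.907), Serping1 (0.896), Lyz2 (0.891), Anxa1 (0.878), Gstm2 (0.871), Igfbp6 (0.871), Sod3 (0.868), Smoc2 (0.862), Ptgis (0.861) and Anxa2 (0.855). Among the genes most like Ptgds alone were Gmppb (0.773), Abcd4 (0.740), Aif1 (0.715) and Tnfaip6 (0.712). Igfbp2 alone was most like Col9a3 (0.895), Ttr (0.866), Slc12a4 (0.865), Msx1 (0.862) and Dusp5 (0.853), of which Ttr, the thyroid hormone carrier transthyretin, is a choroid plexus marker. For the 4 matrix genes, a split made after their values were seen, the nearest were Bgn (0.970), Col3a1 (0.958) and C1s1 (0.956), the first a proteoglycan and the second the type III collagen chain. These r are descriptions over group-centred libraries that share depth and normalization.

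Genes of the same functions were taken from lists, some of which hold members, with values on d14+3 given as log2 difference ± SE and edgeR's adjusted p. Of 40 further leptomeningeal genes, 38 were tested and none had an unadjusted p under 0.05. The nearest were Col5a1, a collagen V chain (-0.43 ± 0.23, adjusted p = 0.723), Slc26a7, an anion exchanger (0.58 ± 0.30, adjusted p = 0.725), and Slc13a3, a dicarboxylate carrier (-0.19 ± 0.10, adjusted p = 0.725). On d14, 32 of the 38 were below 0 with a median of -0.24, beside 53.4% and -0.02 for all genes. By cohort 17 of the 38 had a positive difference, and by round 13 had a negative difference, at an unadjusted p under 0.05, beside 2.52% and 2.73% of all genes.

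In the retinoic acid pathway 17 of 19 listed genes were tested. Cyp26b1, which breaks down retinoic acid, was the only gene of the list at an unadjusted p under 0.05 (-0.43 ± 0.14, adjusted p = 0.492), and next came the retinal reductase Dhrs3 (-0.17 ± 0.10) and the retinol carrier Rbp4 (-0.40 ± 0.32). In prostaglandin D2 synthesis and signalling 9 of 10 were tested. The inducible cyclooxygenase Ptgs2 was the only gene there at an unadjusted p under 0.05 (1.24 ± 0.44, adjusted p = 0.526), and next came the prostaglandin dehydrogenase Hpgd (-0.23 ± 0.12) and the receptor Ptgdr (0.45 ± 0.24). Among 10 tested genes of 12 for insulin-like growth factor signalling none had an unadjusted p under 0.05, with the receptor Igf1r at 0.10 ± 0.088, the ligand Igf2 at -0.27 ± 0.30 and the clearance receptor Igf2r at 0.07 ± 0.098. Leaving out the members on these lists, the numbers below 0 on d14 were 12 of 15 (median -0.17), 3 of 8 (median 0.12) and 6 of 9 (median -0.11). Of all genes 53.4% were below 0 on d14, with a median of -0.02.

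Of 23 genes for making and crosslinking fibrillar collagen, 1 had an unadjusted p under 0.05 on d14+3, the prolyl isomerase Ppib (0.16 ± 0.047, adjusted p = 0.413), and next came Col5a1 and the lysyl oxidase Loxl1 (-0.29 ± 0.19). Of 9 tested small leucine-rich proteoglycans out of 12 listed, 1 did, Ecm2 (0.25 ± 0.11, adjusted p = 0.650), with Prelp at 0.11 ± 0.13 and Bgn at -0.17 ± 0.25. Of 8 tested transporters for GABA or drugs out of 11 listed, only the member Slc47a1 did, with the organic cation carriers Slc22a3 at -0.20 ± 0.12 and Slc29a4 at 0.07 ± 0.077. Each of these lists holds 2 of the members. Without them, 17 of 21 (median -0.099), 4 of 7 (median -0.20) and 4 of 6 (median -0.049) were below 0 on d14. The share of all genes below 0 was 53.4%, with a median of -0.02. By cohort 8, 4 and 0 of these had a positive difference, and by round 7, 4 and 1 a negative difference, at an unadjusted p under 0.05, beside 2.52% and 2.73% of all genes. No gene of any list had an adjusted p under 0.05 in a tested comparison.

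Markers of fibroblasts were present in every library. All 16 leptomeningeal and perivascular fibroblast markers, 8 of which are members, were tested, and they summed to 138 to 219 CPM in Control d14, 143 to 207 in ExpOF d14, 144 to 464 in Control d14+3 and 152 to 352 in ExpOF d14+3. On d14+3 only Slc47a1 among them had an unadjusted p under 0.05, and next came Col1a1 and the transcription factor gene Zic1 (-0.23 ± 0.16). The 8 oligodendrocyte markers, from a cell type that also makes Ptgds, summed to 5616 to 7612 CPM in Control d14, 5848 to 6987 in ExpOF d14, 6738 to 8421 in Control d14+3 and 6355 to 7860 in ExpOF d14+3. None of the 8 had an unadjusted p under 0.05 on d14+3 (Mog -0.16 ± 0.080, Cnp -0.17 ± 0.089). Of 7 tested choroid plexus markers out of 8, Ttr had an unadjusted p under 0.05 (4.11 ± 1.82, adjusted p = 0.677), with Slc4a5 at 2.16 ± 1.20 and Kl at 0.86 ± 0.53. None of the 5 border macrophage markers had an unadjusted p under 0.05, and all 5 were below 0 (Lyve1 -0.47 ± 0.55, Pf4 -0.31 ± 0.52, Cbr2 -0.25 ± 0.48).

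For the other cell types, no astrocyte marker of 6 (Gja1 -0.06 ± 0.060, Slc1a3 0.06 ± 0.061, Gfap 0.05 ± 0.086) and no mural marker of 6 (Tagln -0.32 ± 0.26, Pdgfrb -0.08 ± 0.075, Myh11 0.12 ± 0.11) had an unadjusted p under 0.05 on d14+3. Of 5 tanycyte markers 1 did (Col23a1 0.20 ± 0.092, adjusted p = 0.696), with Crym at -0.36 ± 0.24 and Scn7a at 0.20 ± 0.19. Of 6 endothelial markers 1 did (Cldn5 -0.32 ± 0.15, adjusted p = 0.702), with Kdr at -0.14 ± 0.12 and Tek at 0.07 ± 0.086. Of 5 erythrocyte markers 1 did (Hba-a2 -1.34 ± 0.50, adjusted p = 0.550), with Alas2 at -0.36 ± 0.27 and Hba-a1 at -0.50 ± 0.39. Of 8 neuron markers 2 did, the neurohypophysial hormone genes Avp (-0.99 ± 0.29, adjusted p = 0.413) and Oxt (-0.73 ± 0.28, adjusted p = 0.585), with Sst at -0.29 ± 0.15. Of 6 pituitary markers 2 were tested, Gh and Tshb, and neither did. The 6 pituitary markers summed to 105 and 41.0 CPM in Control d14 replicates 1 and 2, and to at most 20.2 CPM in every other library. Control d14 replicate 1 was also the highest Control d14 library of the fit in CPM for every member except Igfbp2 and Crabp2. On d14, below 0 were 7 of 8 neuron (median -0.30), 5 of 6 mural (-0.26), 7 of 7 choroid plexus (-1.49) and 5 of 5 border macrophage markers (-0.19). So were 5 of 8 oligodendrocyte (-0.17), 3 of 6 astrocyte (-0.009), 3 of 6 endothelial (0.016), 3 of 5 tanycyte (-0.074), 1 of 5 erythrocyte (0.077) and 1 of 2 pituitary markers (-1.30). On d14 the choroid plexus markers summed to 3069 CPM in Control replicate 5 alone. They summed to 38.0 to 46.6 CPM in the other Control d14 libraries of the fit and to 39.3 to 43.2 CPM in ExpOF d14. Of all genes 53.4% were below 0 on d14. The part of these cell types in the members' values was not tested.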

How the data were processed

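Whole-number read counts per gene were deposited by the authors, who aligned paired-end reads from a TruSeq stranded poly-A kit with STAR and counted them with featureCounts 1.6.4 on mm10. Whether the counting used strand is not given in the sources used here, so Aldh1a2 and Slc6a13, which a gene on the opposite strand overlaps, may hold some of its reads. Symbols were matched for 55144 of 55471 genes.

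The 10 genes and the 19 lists were chosen with earlier results of these data known. The d14 difference chose the genes and was not tested. 23 libraries were fitted with edgeR 4.0.16 (robust quasi-likelihood, TMM, genes kept by filterByExpr at 10 counts and a total of 15, R 4.3.3), with Benjamini-Hochberg adjustment over all genes tested. Diet was compared within each day, and cohort and extraction round in fits with the group as a term. DESeq2 1.42.0 was an alternative. CPM are TMM-scaled, log2 CPM have a prior count of 2, and TPM use the file's gene lengths. The left-out library was identified because the study's mean expression values come out only without it. Its CPM are from a normalization of all 24 libraries. Correlations used 100000 permutations, and single genes exact two-sided permutation tests. Named from each list are the 3 genes with the smallest unadjusted p on d14+3. The most alike genes had a mean of at least 1 CPM. A few genes that these rules name are not reported here. Depth ran from 8928182 to 34848437 counts, and intervals cover counting error only. The scripts' models were tested on simulated data.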

Additional observations from a re-analysis of the deposited data

Results flagged for a closer look

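Dixon's test on log2 CPM set a single value against the rest in 40 groups of 5 or 6 mice. Of these groups, 6 held a mouse past the 95% critical value (0.71 for 5 mice, 0.625 for 6), where chance gives about 1 in 20. The levels are printed in CPM, on which the test was not run. ExpOF d14+3 replicate 1 was the highest of its group for Col1a1 (21.3 CPM, the next at 7.60), Col1a2 (52.7 CPM, the next at 19.4) and Lum (6.71 CPM, the next at 1.73). Ptgds was highest in ExpOF d14+3 replicate 5, at 362 CPM with the next at 280. Crabp2 was lowest in Control d14+3 replicate 4, at 0.675 CPM with the next at 1.32. Slc47a1 was lowest in ExpOF d14 replicate 5, at 1.13 CPM with the next at 3.22, and rested there on 10 counts.

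In CPM, the Control d14 library that was left out of the fit lay above the highest of the other 5 controls for 6 of the 10 genes: Ptgds at 1297 CPM (574 in the next), Igfbp2 at 80.6 (34.1), Col1a1 at 15.4 (13.0), Col1a2 at 32.4 (28.8), Dcn at 26.2 (23.2) and Lum at 3.99 (2.7). In TPM this held only for Ptgds (1910, with 1406 in replicate 1) and Igfbp2 (106, with 68.2 in replicate 5). Replicate 1 was higher in TPM than the left-out library for Col1a1 (8.00 against 5.68), Col1a2 (9.34 against 6.32), Dcn (16.0 against 10.9) and Lum (4.46 against 3.96). In the same library choroid plexus markers summed to 4514 CPM and erythrocyte markers to 696 CPM. Their part in these levels was not tested.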

How the results depend on the processing

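Of 867 recomputed fold changes of the 10 genes in the tested comparisons, 823 kept their direction and their side of an adjusted p of 0.05, 11 passed it only with a filter of at least 1 count over all libraries (6 by cohort and 5 by round, the 4 matrix genes in both) and 33 changed sign, none of which had been called. On d14+3, 55 genes were called by DESeq2 and 26 with RIN in the fit, against 0. By round, DESeq2 called 29 and the 1-count filter 240, and by cohort that filter called 236, again against 0. That filter kept 39970 genes, and the prior degrees of freedom became infinite, against a median of 5.39 for 18992 genes. Members at an unadjusted p under 0.05 on d14+3 numbered 0 instead of 1 with that filter, with the 2 groups alone, in July mice alone, with cohort and round as covariates, with the replicate block and without the 2 libraries of highest matrix RNA, and by cohort 3 instead of 6 in d14+3 mice alone and without those 2 libraries. The interaction had 1 such member with RIN in the fit, and 22 correlated pairs passed over all 23 libraries. Signs changed for Crabp2 by cohort (0.016 with all 24 libraries, 0.17 in d14+3 mice), Ptgds by round (0.083 with all 24), Igfbp2 on d14+3 (-0.31 in July, -0.070 with cohort and round, -0.08 with the replicate block), Dcn (0.038 in July), Crabp2 (0.19 in September) and, without the 2 libraries, Aldh1a2 on d14+3 (-0.059) and by round (0.0086). The cause was not tested. Leaving out 1 mouse at a time gave 0 to 0 called genes on d14+3 and in the interaction, 0 to 1 by cohort and 0 to 46 by round (46 without Control d14+3 replicate 5). Members at an unadjusted p under 0.05 ran from 0 to 3 on d14+3 (3 without ExpOF d14+3 replicate 1), 5 to 7 by cohort, 4 to 5 by round and 0 to 1 in the interaction, members lower on d14 from 9 to 10, and correlated pairs from 8 to 13. The d14+3 differences ran from -1.03 to 0.015 for Col1a1, -0.66 to 0.21 for Col1a2, -0.56 to 0.21 for Dcn, -0.87 to 0.20 for Lum, -0.18 to 0.26 for Igfbp2 and -0.098 to 0.17 for Aldh1a2. Crabp2 by cohort ran from -0.087 to 0.074 and Ptgds by round from -0.081 to 0.0074. Ptgds on d14 was -1.07 with all 24 libraries. Replicate numbers did not pair the mice (correlations of deviations -0.21 to 0.22), and with the replicate block 0 genes were called and 5 members passed by cohort at an unadjusted p under 0.05. Round could not be fitted with the block. A minimum of 10 counts in every library dropped Crabp2 and left 9 members.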
